A study of Mus musculus with 8 samples.

Results

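Kinesins are motor proteins that walk along microtubules, and the genes described here are those whose symbol is Kif followed by a digit. Of the 19938 genes with a probe set naming a single gene, 38 were kinesins by that rule. Where a kinesin had more than 1 probe set, which was so for 6 genes, the one was chosen by the highest mean over the 8 arrays. The symbols fixed the membership, but the family was proposed because Kif13a was already known to differ between the groups, so the Kif13a difference is given as a description with no test. Kif4-ps, which meets the rule by its symbol, is annotated as a transcribed pseudogene and not as a motor.

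Total RNA came from layers II-IV of the neocortex, laser-microdissected from mouse pups at postnatal day 5, with 1 Affymetrix Mouse Gene 1.0 ST array per pup. The 4 control pups were Bcl6 flox/flox;Nex +/+ and the 4 mutant pups were Bcl6 flox/flox;Nex Cre/+. All 8 therefore carried floxed Bcl6 alleles, and only the mutants carried Cre, on 1 allele of Nex (Neurod6), which excitatory neurons of the cortex express after their last division. Recombination is thus directed to those neurons, and interneurons, glia and vessels of the captured tissue are not targeted. Bcl6 encodes a zinc-finger transcriptional repressor. The study's title places the comparison in the developmental death of cortical projection neurons. In this tissue RNA, fewer cells of a type and less RNA per cell cannot be told apart.

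Most kinesins carry cargo towards the plus ends of microtubules, which in an axon means towards its tip. Kinesin-1 (Kif5), kinesin-2 (Kif3, Kif17) and kinesin-3 (Kif1, Kif13, Kif16b) move vesicles, organelles, endosomes and receptors in neurons, whereas another set (Kif11, Kif20, Kif23 and others) builds the spindle and the midbody of dividing cells. Cortical neurons of layers II-IV are postmitotic at this age, and dividing cells in the tissue are mainly glial and vascular.

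Expression is given as deposited, in log2 units per probe set. Such values do not rank genes against each other, because each depends on the affinity of its own probes, so the genotypes are compared gene by gene across arrays. The median level of all genes serves only as a rough mark of how bright a probe set was. The medians of the arrays over all genes lay between 5.54 and 5.59, and correlations between arrays were at least 0.9947. Bcl6 itself read 6.23 to 6.58 in controls and 6.61 to 6.96 in mutants, with a limma adjusted p of 0.655. Where its probes sit relative to the floxed exons was not analysed here, so the value is no check of the deletion. Neurod6, whose locus carries Cre in mutants, read 9.22 ± 0.13 (SD, n = 4) in controls and 8.83 ± 0.17 in mutants. All 4 mutants lay below all 4 controls, with a limma adjusted p of 0.535. Groups that did not overlap, as in Bcl6 and Neurod6, were found in 2.75% of all genes. Every direction below rests on the labels. The 6 neuron markers and the 5 markers of layers II-IV that were measured all lay above the median level of all genes. So did the 5 interneuron markers, the 5 endothelial markers, 5 of 6 oligodendrocyte lineage markers and 4 of 6 astrocyte markers. The counts were 3 of 5 for markers of layers V-VI and 0 of 6 for microglial markers. Between genotypes 0 of these markers were called at a limma adjusted p under 0.05. An unadjusted limma p under 0.05 was found in Snap25, Tbr1, Crym and P2ry12, and in 4.91% of all genes. Their differences, mutant minus control, were -0.21 ± 0.09 (SE), 0.17 ± 0.07, -0.22 ± 0.10 and -0.27 ± 0.10. Groups did not overlap in Tbr1 and in Gfap (-0.11 ± 0.06). Xist was high in mutant replicates 1 and 4 (9.78 and 9.76) and 2.64 to 3.41 in the other 6 arrays. High Xist was thus found only in mutants, so it is partly confounded with genotype.

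Kif13a, a kinesin-3 motor that carries endosomal and trans-Golgi cargo, was the member with the widest gap between genotypes. Across control replicates 1 to 4 its probe set (10408975) had values of 5.95, 6.28, 6.10 and 6.06. Across mutant replicates 1 to 4 the values were 7.30, 6.97, 7.10 and 6.93. All 4 mutants lay above all 4 controls, and the step of 0.66 between the highest control and the lowest mutant was wider than the range within controls (0.32) or within mutants (0.36). The means were 6.10 ± 0.13 (SD, n = 4) and 7.07 ± 0.16, which is a difference of 0.98 ± 0.09 (SE) on the log2 scale, or 1.97-fold more in mutants. The Xist-high mutants were the highest and the lowest of the 4, and without both of them the difference was 0.93. A single probe set names Kif13a, so no second reading of its transcript was at hand.

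The start of the gene is shown because BCL6 acts by binding DNA. Of the 38 kinesins, 31 had a start-site window in the RefSeq table (GRCm38.p6), with 35 windows in all, each reaching from 250 bases before the start to 50 after it. Kif13b had none. The windows were searched on both strands for TTCCTNGAA, a BCL6 consensus, and for TTCNNNGAA, the looser palindrome that contains it. The window of Kif13a (chr13:46929669-46929968, minus strand) and that of Kif26b (chr1:178528875-178529174, plus strand), the only kinesin with a match, read as follows 5′ to 3′, with the matching letters in capitals.

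Kif13a: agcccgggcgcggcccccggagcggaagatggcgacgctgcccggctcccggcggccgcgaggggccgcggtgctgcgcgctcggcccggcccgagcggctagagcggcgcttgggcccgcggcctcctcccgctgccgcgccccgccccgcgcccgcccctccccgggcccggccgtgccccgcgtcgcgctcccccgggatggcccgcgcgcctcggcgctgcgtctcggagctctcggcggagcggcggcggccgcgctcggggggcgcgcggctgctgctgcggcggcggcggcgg

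Kif26b: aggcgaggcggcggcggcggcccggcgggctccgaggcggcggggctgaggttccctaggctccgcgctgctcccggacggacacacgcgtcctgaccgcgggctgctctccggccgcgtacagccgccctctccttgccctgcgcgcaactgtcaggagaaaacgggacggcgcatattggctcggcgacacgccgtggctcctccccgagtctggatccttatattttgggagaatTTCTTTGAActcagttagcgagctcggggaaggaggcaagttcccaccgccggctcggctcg

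The Kif13a window held neither motif. It is 86.7% G and C, against a median of 52.7% over all windows, and 0.0365% of the 32851 windows were as rich or richer. TTCCTNGAA stood in 0 of the 35 kinesin windows and in 1.59% of all windows. TTCNNNGAA stood in 1 of the 35, as TTCTTTGAA in Kif26b, and in 8.30% of all windows. These are matches of letters in short windows and say nothing about binding there or elsewhere.

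**Figure D1:**
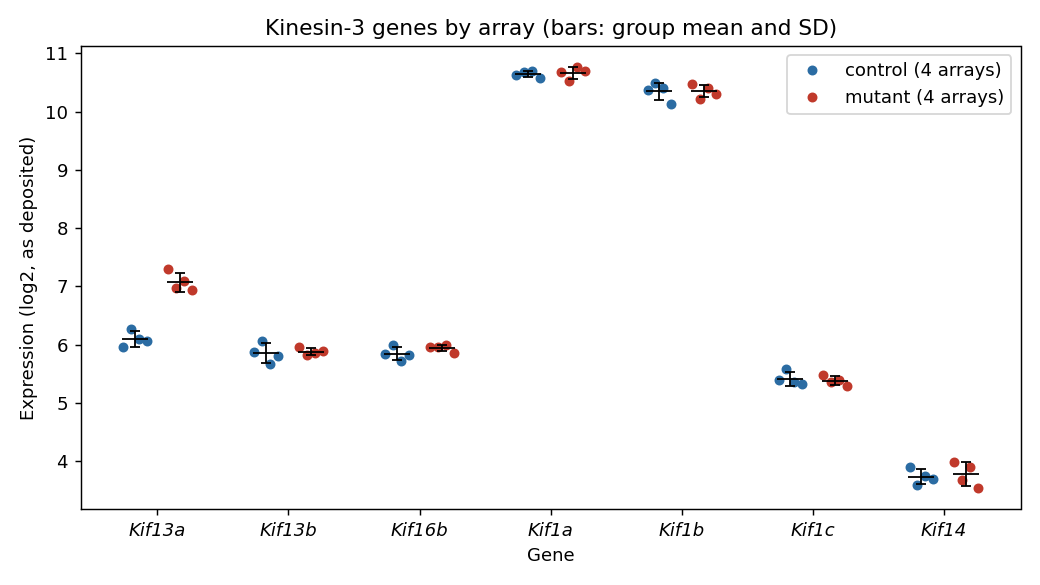
Deposited log2 expression (y axis) of the 7 kinesin-3 genes (x axis), a point for each of 4 control arrays (blue) and 4 mutant arrays (red), with bars for the group mean and SD. Mutant and control points are apart in Kif13a, from 6.10 to 7.07, and overlap in the other 6 genes; heights of different genes are not comparable.

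The nearest relatives of Kif13a showed no difference of that size. Kif13b, which carries the same kinesin-3 type of motor and is known for moving Dlg1 and other membrane cargo, had values of 5.88, 6.07, 5.67 and 5.81 across control replicates 1 to 4. Across the mutant replicates they were 5.96, 5.82, 5.86 and 5.89. All 4 mutant values lay inside the control range. The difference was 0.03 ± 0.08 (SE, n = 4 per group; limma adjusted p = 1.00), with a 95% interval from -0.16 to 0.21, so that the Kif13a difference exceeded it by 0.95 on the log2 scale.

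Kif16b, a motor of early endosomes, read 5.83, 5.997, 5.73 and 5.82 in controls and 5.96, 5.96, 5.99 and 5.86 in mutants. Its mutants lay within the control range, toward the upper end, and the difference was 0.10 ± 0.07 (SE; interval -0.06 to 0.25). Kif1a, the main carrier of synaptic vesicle precursors, read 10.63, 10.69, 10.70 and 10.58 in controls and 10.69, 10.52, 10.76 and 10.69 in mutants. These overlapped throughout (difference 0.02 ± 0.07). Kif1b, which carries mitochondria and synaptic vesicle precursors, read 10.37, 10.48, 10.40 and 10.14 in controls and 10.48, 10.23, 10.40 and 10.31 in mutants. Its lowest value was in control replicate 4, and the difference was 0.01 ± 0.09. Kif1c, a motor of dense core vesicles and of Golgi traffic, read 5.39, 5.58, 5.35 and 5.33 in controls against 5.47, 5.36, 5.39 and 5.29 in mutants. The groups again overlapped, with a difference of -0.03 ± 0.07.

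Kif14 is the kinesin-3 member that works in cytokinesis rather than in axons. It read 3.90, 3.60, 3.75 and 3.69 in controls and 3.98, 3.68, 3.90 and 3.54 in mutants, and the mutants spread over more than the control range (difference 0.04 ± 0.10). Over these 6 relatives the 95% intervals together ran from -0.19 to 0.26, and the Kif13a difference exceeded their differences by 0.88 to 1.01. Kif1c and Kif14 have another probe set each, which read -0.09 and -0.13 in mutants relative to controls. For Kif14 the sign was opposite to that of the probe set used. In the other Kif1c probe set all 4 mutants (3.83 to 3.94) lay below all 4 controls (3.95 to 4.03). By the probe sets used, groups did not overlap in 2.75% of all genes.

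Apart from Kif13a, for which the family was proposed, 0 of the other 37 kinesins were called higher or lower at a limma adjusted p under 0.05, where 0.0502% of all genes were called higher and 0.015% lower. By the probe set used for each gene, the groups did not overlap in 0 of the 37, against 2.75% of all genes. Of these 37, 24 differences were positive and 13 negative, with a median of 0.02, where all genes had a median of -0.01. In 0 of the 37 did the 95% interval reach the 0.98 of Kif13a. The interval reached 0.5 in either direction in 1 of them, Kif4, and lay inside -0.25 to 0.25 in 27. An unadjusted p under 0.05 was found in 3 of the 37 (8.11%), Kif26b, Kif23 and Kif22, against 4.91% of all genes, and all 3 were higher in mutants with limma adjusted p of 0.907, 0.974 and 0.988.

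**Figure D2:**
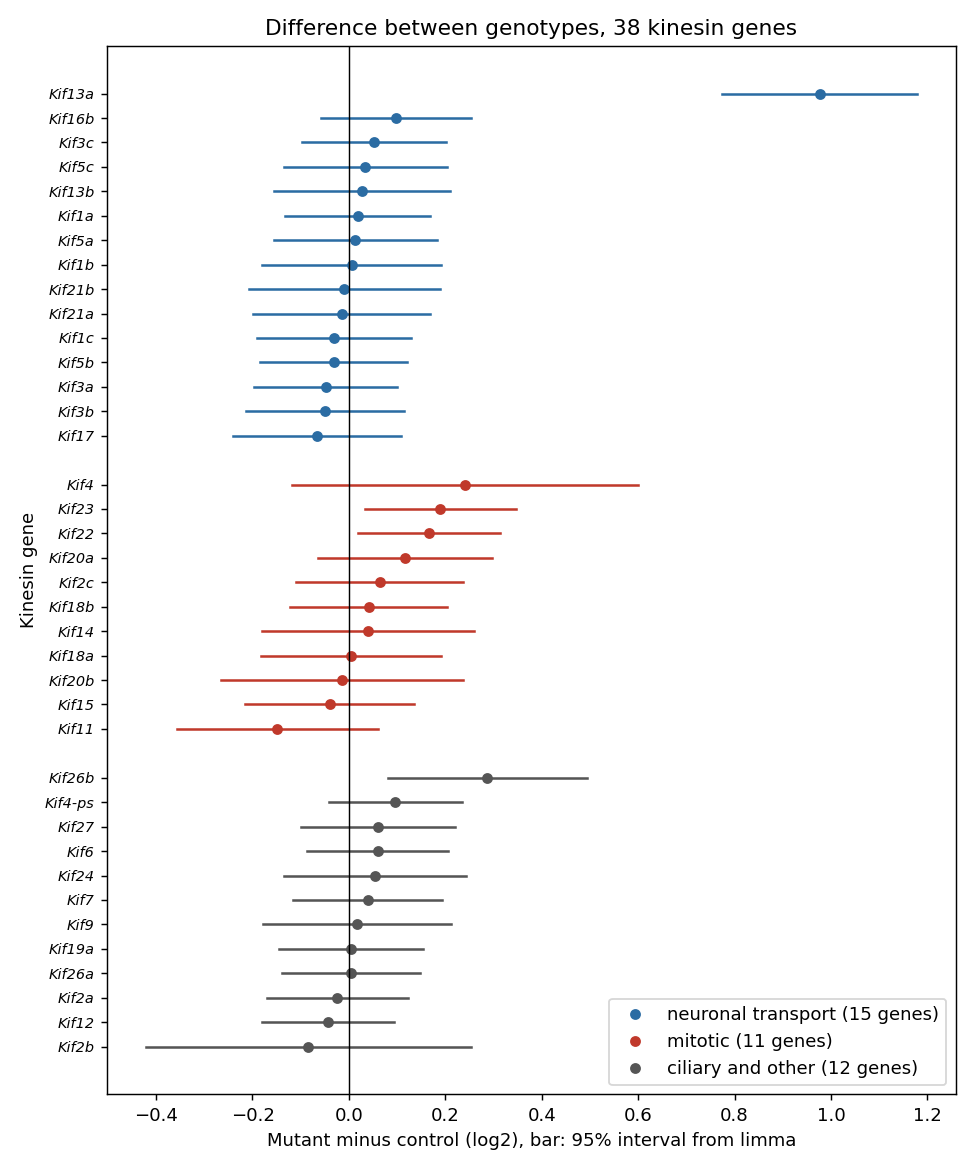
Mutant minus control difference (x axis, log2) for each of the 38 kinesins (y axis), grouped by role, each point with its 95% interval from limma over 4 control and 4 mutant arrays. Kif13a lies at 0.98, and its interval is drawn as a description and not as a test, because the family was proposed from it. The highest interval end among the other 37 is 0.60, in Kif4.

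Kif26b belongs to kinesin-11, an atypical branch whose members act on signalling and cell adhesion. Across control replicates 1 to 4 it had values of 6.52, 6.61, 6.25 and 6.23, and across the mutant replicates 6.73, 6.81, 6.60 and 6.62. Control replicate 2, at 6.61, was the only control to reach into the mutant range. The difference was 0.29 ± 0.10 (SE, n = 4 per group; interval 0.08 to 0.49). Its other probe set moved the same way, from 6.42 ± 0.15 (SD) to 6.62 ± 0.07, a difference of 0.20. Kif26a, the other kinesin-11 gene, differed by 0.00 ± 0.07.

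The motors of axonal and dendritic transport, 15 genes by the list used, gave a median difference of 0.01, and 8 were positive and 7 negative. Without Kif13a the 14 others divided into 7 and 7, with differences from -0.07 to 0.10, intervals from -0.24 to 0.25 in all, and 0 at an unadjusted p under 0.05 in limma, against 4.91% of all genes. The kinesin-1 heavy chains Kif5a, Kif5b and Kif5c, which pull mitochondria, vesicles and RNA granules, differed by 0.01 ± 0.08, -0.03 ± 0.07 and 0.03 ± 0.08 (SE). Of kinesin-2, Kif3a and Kif3b, which form the heterotrimeric motor of axons and cilia with Kifap3, differed by -0.05 ± 0.07 and -0.05 ± 0.08. Kif3c, which pairs with Kif3a in neurons, differed by 0.05 ± 0.07, and Kif17, a dendritic motor of NMDA receptor subunits, by -0.07 ± 0.08. Kif21a and Kif21b, kinesin-4 proteins that restrain microtubule growth, differed by -0.02 ± 0.08 and -0.01 ± 0.09. The 95% interval of each of these 14 includes zero.

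The mitotic kinesins numbered 11, and 8 differences were positive and 3 negative, with a median of 0.04. All 11 lay below the median level of all genes in these arrays, with control means of 3.74 to 5.62, and the table holds no detection calls, so whether each was above background is not known. Kif23, a component of the centralspindlin complex of the midbody, read 4.58, 4.77, 4.60 and 4.57 in controls and 4.84, 4.69, 4.88 and 4.88 in mutants. Control replicate 2 and mutant replicate 2 crossed, and the difference was 0.19 ± 0.07 (SE; interval 0.03 to 0.35). Kif22, a chromosome arm motor, read 5.38, 5.29, 5.25 and 5.24 in controls and 5.37, 5.50, 5.56 and 5.40 in mutants. Its highest control and lowest mutant differed by little, and the difference was 0.17 ± 0.07 (interval 0.02 to 0.31).

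Kif4, a chromosome-bound motor of the central spindle whose gene is on chromosome X, had the widest interval of the family. Its controls ranged from 3.77 to 4.33, and its mutants read 4.86, 4.28, 4.11 and 4.01 in replicates 1 to 4, a difference of 0.24 ± 0.17. Mutant replicate 1 set the upper end, while mutant replicate 4, also Xist-high, was the lowest mutant. Kif11, the motor that pushes spindle poles apart, was the mitotic kinesin with the most negative difference (-0.15 ± 0.10), and Kif20a, of cytokinesis, differed by 0.12 ± 0.08. Kif2c, which removes tubulin from microtubule ends at centromeres, differed by 0.06 ± 0.08, and Kif18b, which acts at the plus ends of spindle microtubules, by 0.04 ± 0.07. Kif15, Kif18a and Kif20b, of the spindle, chromosome alignment and cytokinesis, lay between -0.04 and 0.00. Of 14 dividing cell markers measured, 0 were called by limma and 0 reached an unadjusted p under 0.05, against 4.91% of all genes, a share at which a list of this length holds few such genes. Their median was 0.01. The smallest p among them belonged to Mki67 (0.16 ± 0.08), Ect2 (-0.09 ± 0.07) and Bub1 (-0.15 ± 0.13).

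The median difference was 0.01 for the neuronal motors with Kif13a, -0.002 without it and 0.04 for the mitotic motors, beside -0.01 for all genes. Neuronal transport kinesins without Kif13a spread from -0.07 to 0.10 and mitotic ones from -0.15 to 0.24, with array SDs within a group reaching 0.17 in the former and 0.38 in the latter. Whether the groups differ from each other was not tested.

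The remaining 12 symbols cover cilia, microtubule ends and less known functions, and 9 of their differences were positive and 3 negative, with a median of 0.03. Kif2a, a microtubule depolymerase that limits axon branches, differed by -0.02 ± 0.07 (SE). The ciliary and hedgehog-related Kif7, Kif27 and Kif24 differed by 0.04 ± 0.07, 0.06 ± 0.07 and 0.05 ± 0.09, and Kif19a, Kif6 and Kif9, associated with motile cilia, by 0.00 ± 0.07, 0.06 ± 0.07 and 0.02 ± 0.09. Kif12 differed by -0.04 ± 0.06, Kif2b by -0.08 ± 0.16 and the pseudogene Kif4-ps by 0.10 ± 0.06. Kif2b had the second widest interval, from -0.42 to 0.25, at a low control mean of 3.20. Of these 12, 0 passed limma's adjusted threshold and 1, Kif26b, had an unadjusted p under 0.05, against 4.91% of all genes. For Kif6 and Kif7 the other probe set gave -0.11 and -0.04, of opposite sign to the one used.

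Within each genotype many of the transport motors were low in the same array. As the median deviation from each gene's mean over the 8 arrays, the 14 motors other than Kif13a stood at 0.00, 0.10, 0.04 and -0.09 across control replicates 1 to 4 and at 0.06, -0.09, 0.00 and 0.02 across the mutant replicates. Among controls, 9 of the 14 were lowest in replicate 4 and 9 were highest in replicate 2. Among mutants, 9 of the 14 were lowest in replicate 2. The deviation of all genes was 0.03 in control replicate 2 and within 0.02 of zero in the other arrays. The order was not particular to motors. The 23 light chains and adaptors read 0.09, -0.05 and -0.05 in control replicates 2 and 4 and mutant replicate 2. Neuron markers read 0.08, -0.06 and -0.04 there, but -0.09 in mutant replicate 4. Mutant replicate 2 was also low for endothelial (-0.19), astrocyte (-0.11), oligodendrocyte lineage (-0.09) and microglial (-0.09) markers. Interneuron, layers II-IV and layers V-VI markers read -0.01, 0.01 and 0.01 in it. After quantile normalization the 14 motors still read 0.07 in control replicate 2, -0.07 in control replicate 4 and -0.06 in mutant replicate 2. The 5 layers II-IV markers read -0.28 in control replicate 4 and 0.09 in each of the other controls, and their part in the low motor values of that array was not tested. The mitotic kinesins followed another order, with 0.11 in mutant replicate 1 and -0.06 to 0.04 in the other 7 arrays, where the dividing cell markers read 0.02 and -0.10 to 0.07.

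**Figure D3:**
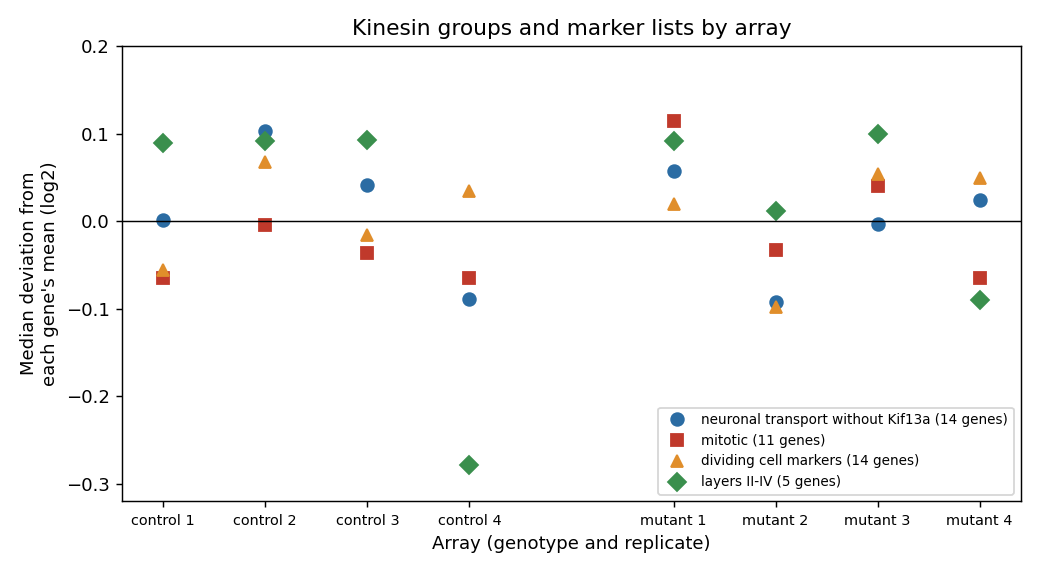
Median deviation (y axis, log2) from each gene's own mean over 8 arrays, for 14 neuronal transport kinesins without Kif13a, 11 mitotic kinesins, 14 dividing cell markers and 5 layers II-IV markers, in each control and mutant array (x axis). Transport kinesins are lowest in control replicate 4 and mutant replicate 2 (both -0.09), and the layer markers are lowest in control replicate 4 (-0.28).

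The partners of these motors were examined from lists of light chains, adaptors, cargo and the opposing dynein motor. Of 78 such genes measured out of 90 listed, dividing cell markers included, 0 were called by limma and 0 reached an unadjusted p under 0.05, against 4.91% of all genes. Their median was -0.01, with 35 positive and 43 negative. Kinesin light chains and adaptors (23 measured) had a median of -0.02, and the members of smallest p were Ppfia2, a liprin that links Kif1a to synaptic cargo (-0.12 ± 0.07, SE), Lin7a, of the complex that joins Kif17 to its receptor cargo (-0.15 ± 0.10), and Fez1, a kinesin-1 adaptor (-0.08 ± 0.07).

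Proteins that work with Kif13a on endosomes (14 of 15 measured, M6pr not analysed here) had a median of -0.01, with 5 positive and 9 negative. Ap1m1 and Ap1s1, subunits of the AP-1 adaptor through which Kif13a binds cargo, read -0.13 ± 0.07 and -0.11 ± 0.07 (SE), and Zfyve26, a Kif13a partner in cytokinesis, read 0.12 ± 0.08. Ap1m1 was the 1 gene of the list whose groups did not overlap, which held for 2.75% of all genes, and its limma adjusted p was 1.00. Cytoplasmic dynein and dynactin genes (23 measured), the motor that runs toward minus ends, had a median of 0.00 and extremes from Dync1i1, a neuronal intermediate chain, at -0.14 ± 0.08, to Bicd2, a cargo adaptor, at 0.09 ± 0.09, beside Hook1 at 0.09 ± 0.09. Motors that the symbol rule leaves out also gave no call, namely Stard9 (0.14 ± 0.07), Kifc2 (0.05 ± 0.07), Cenpe (-0.04 ± 0.07) and Kifc3 (0.01 ± 0.08).

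**Figure D4:**
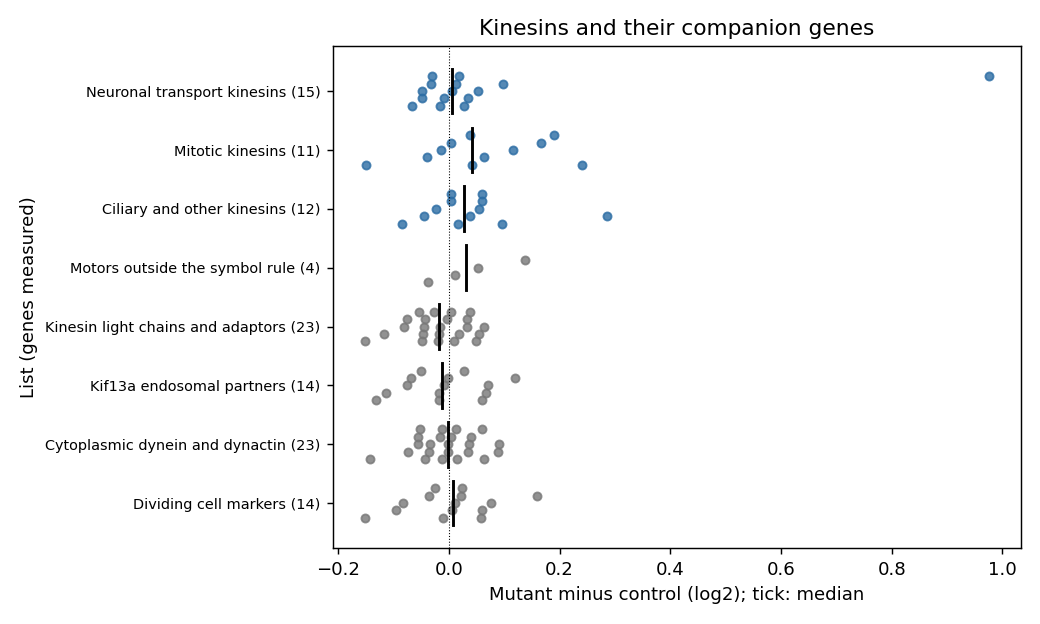
Mutant minus control difference (x axis, log2) for the 38 kinesins in 3 role groups (blue) and for genes of 5 companion lists (grey), a point per gene and a tick at the median, with the number of genes measured in parentheses (y axis). Kif13a, at 0.98, is the only point above 0.3, and companion genes lie between -0.15 and 0.16.

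The 38 kinesins lie on 15 chromosomes, with 0 on chromosome 6, which holds the Cre-bearing Neurod6 locus, and 0 on chromosome 16, which holds Bcl6. Kif13a is on chromosome 13. Among the 4 measured genes on each side of it in the gene order of GRCm38.p6, differences ran from -0.17 (Cap2, an actin regulator) to 0.23 (Tpmt, a thiopurine methyltransferase). Tpmt was second in order after Kif13a. It read 6.25 ± 0.11 (SD, n = 4) in controls and 6.48 ± 0.06 in mutants. Its groups did not overlap, as in 2.75% of all genes, and its limma adjusted p was 0.827. Cap2 and Tpmt had unadjusted limma p of 0.037 and 0.0067, where 4.91% of all genes lay under 0.05. The limma adjusted p of Cap2 was 0.989. The genes next to Kif13a on either side, Nup153 and Nhlrc1, differed by -0.01 ± 0.08 and 0.05 ± 0.06 (SE).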

How the data were processed

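Layers II-IV of 8 pups were profiled, 1 array each. The values deposited by the authors are log2 expression for each probe set, made with BRB-ArrayTools per the labels. Sources used here do not give the background correction, normalization, summarization or version, and the log2 scale was read from the values. The table has no detection calls, and the number of arrays limits precision.

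Of 35556 probe sets, 21789 named 1 gene in the platform annotation and were used; 1621 named several and 12146 none. Symbols were set to GRCm38.p6 through the Entrez identifier (21698 matched), giving 19938 genes.

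Genotypes were compared by limma 3.58.1 in R 4.3.3 (lmFit, eBayes, all 8 arrays, two-sided), with Benjamini-Hochberg adjustment over all genes and no filter. Differences are mutant minus control with the moderated SE and 95% intervals. The fit was tested on simulated data. Kinesins, lists and alternatives were chosen with earlier results of these data known, so lists are described by counts and medians with no list test. Every kinesin was named. Values in all arrays were given for the kinesin-3 genes, Kif13a included, and any kinesin with an unadjusted p under 0.05 or groups that did not overlap. Cell type markers were named for their genotype difference by the same criteria. At least the 3 genes of smallest p were named from each companion list. Replicate numbers are not said to pair pups.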

Additional observations from a re-analysis of the deposited data

Results flagged for a closer look

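In 76 groups of 4 arrays (38 kinesins in each genotype), 2 values stood far from the other 3 by Dixon's criterion, and chance flags about 1 group in 20. Kif23 read 4.77 in control replicate 2, where the other controls lay between 4.57 and 4.60. Kif6 read 4.90 in mutant replicate 3, where the other mutants lay between 4.69 and 4.72.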

How the results depend on the processing

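The 15 alternatives were quantile normalization, median centring, a filter at the median level, an intensity trend in the prior, a replicate block, averaging probe sets that name 1 gene, leaving out each array in turn and leaving out both Xist-high mutants. In each of them 0 kinesins other than Kif13a were called in limma. The Kif13a difference, which led to the choice of the family and is given as a value only, ran from 0.90 to 1.04 over them. The filter left 16 of the 38 kinesins and none of the mitotic ones. Medians over kinesins ran from -0.001 (without both Xist-high mutants) to 0.04, and over mitotic kinesins from 0.03 to 0.08. Medians over neuronal transport kinesins ran from -0.04 (without control replicate 4) to 0.05 (without mutant replicate 2). The signs of the kinesin median and of the neuronal median are therefore not fixed by these arrays. Of 146 values of single named kinesins under an alternative, 14 had the other sign, all in Kif1a, Kif1b, Kif1c, Kif13b or Kif14, and none of these was called. Deviations of same-numbered arrays correlated by -0.01 to 0.16, so the numbers were not treated as pairs; with the replicate block the Kif13a difference was 0.98, and the genes called over the whole table numbered 5 against 13.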
